A study of Mus musculus with 6 samples.

Results

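Integrin and cell adhesion genes were followed in pre-B cells of the bone marrow, in which the light chain genes of the antibody recombine. The members were chosen by gene symbol, with earlier results of these data known. They were the integrin subunits and 4 proteins named after them, the ICAM, VCAM and PECAM receptors, junctional adhesion molecules, selectins and PSGL-1. Cd44, the talins and kindlins, and the cadherins with a number in their name were also taken. The symbols gave 64 genes of the 17372 found among the deposited probe sets with a single gene name. Another 10 genes that fit the same symbols, among them Cd47, Jam3 and Fermt1, were not analysed here. Of the 64 genes, 35 passed a filter on low values and 29 lay below it. The filter kept probe sets whose log2 values averaged more than 7.26, the 40th percentile of the whole table.

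The study compared pre-B cells that lack MEF2C, a MADS-box transcription factor, with control pre-B cells at 9 months of age, with 3 Affymetrix mouse expression arrays in each group. The Mef2c-deficient mice were Vav-Cre Mef2c fl/fl, in which the Vav promoter drives Cre in blood-forming cells generally and not only in B cells. The labels call the others control without a genotype. Per the study's methods, control animals of the same age either had floxed Mef2c without Cre (fl/fl or fl/+) or had Vav-Cre with a single floxed allele (fl/+), so a control sample may lack 1 copy. Fresh marrow was sorted by flow cytometry, with pre-B cells gated as B220+ IgM- CD43-, and the study used both sexes. The study describes independent samples and names no animals. A p-value therefore reflects how far these 6 samples scatter, and with 3 arrays a group its precision is limited.

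Integrins are pairs of an alpha and a beta chain that span the membrane and bind matrix proteins or receptors on other cells. They are switched from a low to a high affinity when talin and kindlin bind the tail of the beta chain. In the marrow, alpha4beta1 on B-cell progenitors binds VCAM-1 on stromal cells, and the beta2 integrins of leukocytes bind ICAMs. Selectins catch sugars carried by PSGL-1 on rolling leukocytes, and cadherins join cells through calcium-dependent contacts that catenins link to actin.

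For Itga9, Itgb7 and Itgax, which differed by at least 1 log2 unit at an unadjusted p under 0.05 and had a promoter in the RefSeq table, the region from 250 bases before to 50 bases after the start is shown 5′ to 3′ on the gene's strand. Capitals mark CANNTG, the E-box, which E proteins of the B lineage bind. The windows are on build GRCm38.p6: Itga9 at chr9:118711442-118711741 on the + strand, Itgax at chr7:128129300-128129599 on the + strand and Itgb7 at chr15:102231886-102232185 on the - strand.
Itga9: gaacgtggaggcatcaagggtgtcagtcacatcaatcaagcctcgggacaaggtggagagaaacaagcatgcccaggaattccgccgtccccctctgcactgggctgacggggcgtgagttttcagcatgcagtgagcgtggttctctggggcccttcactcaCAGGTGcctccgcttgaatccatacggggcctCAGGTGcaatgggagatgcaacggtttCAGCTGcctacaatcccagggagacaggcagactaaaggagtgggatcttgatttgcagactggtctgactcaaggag
Itgb7: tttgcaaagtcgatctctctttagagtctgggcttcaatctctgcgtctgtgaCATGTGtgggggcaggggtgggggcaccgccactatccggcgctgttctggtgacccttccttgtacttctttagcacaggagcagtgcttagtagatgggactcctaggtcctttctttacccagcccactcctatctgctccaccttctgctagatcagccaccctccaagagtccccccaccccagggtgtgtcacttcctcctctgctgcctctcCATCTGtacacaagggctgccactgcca
Itgax: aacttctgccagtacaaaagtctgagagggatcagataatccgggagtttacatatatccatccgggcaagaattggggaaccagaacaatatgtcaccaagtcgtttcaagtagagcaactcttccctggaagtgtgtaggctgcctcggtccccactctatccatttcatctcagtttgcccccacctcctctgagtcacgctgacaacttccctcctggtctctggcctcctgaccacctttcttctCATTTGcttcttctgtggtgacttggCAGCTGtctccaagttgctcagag
The Itga9 window held 3 such matches, and the Itgax and Itgb7 windows 2 each. The letters CANNTG, which cover both strands in a single search, stood in 72.3% of 32851 promoters of this length, and in 35 of the 45 promoters listed for 41 of the 64 adhesion genes (77.8%). The MEF2 consensus was in none of the 3 windows. Searched in the same way, it was in 3.19% of all promoters and in 2 of the 45, those of Cdh10 and Itga10. A match is a run of letters and not a measured site.

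Some facts of the 6 arrays bear on every value. The median deposited value lay between 277 and 285 on the Mef2c-deficient arrays and between 236 and 268 on the control arrays. Mef2c-deficient replicate 3 stood apart, with genes that deviated from their group mean with an SD of 0.788, against 0.556 to 0.583 for the other two Mef2c-deficient arrays and 0.289 to 0.469 for the control arrays. The bioB spike-in probe sets were 1.66 to 1.84 higher on the log2 scale in the Mef2c-deficient arrays, and CreX was 0.21 higher. Of 16 markers of the labelled cell type, 15 had a lower mean in Mef2c-deficient cells, 6 of them at an unadjusted limma p under 0.05, and Cd79a had a higher one. Among all genes passing the filter, 62.3% had a lower mean and 20.9% were lower at this threshold. The median of the 16 markers, set against the control mean, was -0.44, -0.81 and -1.25 in Mef2c-deficient replicates 1 to 3. Cd79a still lay between 18.40 and 18.92 in Mef2c-deficient arrays and between 17.80 and 18.96 in control arrays. Mef2c itself was not analysed here. Values are log2 of the deposited intensity, and if the authors left the log scale with a base of e, each log2 difference is 0.69 times the value given.

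No adhesion gene passed the adjusted threshold. The limma fit called 0 of 35 genes at a Benjamini-Hochberg adjusted p under 0.05, where 2 of all 11271 genes passed it as lower (0.0177%) and 0 as higher (0%). At an unadjusted p under 0.05, 10 of the 35 genes were higher and 2 were lower in Mef2c-deficient cells. Among all genes passing the filter 5.32% were higher and 20.9% lower by the same rule. The methods' t-test, run on the same values, gave 5 higher, 1 lower and 0 after adjustment. Over all genes it gave 641, 1909 and 0. The 10 higher genes were 7 without Mef2c-deficient replicate 3, 6 without Mef2c-deficient replicate 2, 3 without control replicate 1, 3 without control replicate 2 and 5 without control replicate 3, while fitting with array weights put 5 genes past the adjusted threshold. Over all genes passing the filter, the 600 higher were 797, 518, 239, 341 and 327 in the same fits. Array weights put 1154 of all 11271 genes past the adjusted threshold. Of the 10 higher genes, Cdh1, Cdh3 and Cdh4 had a control mean below 7.26 and so passed the filter only through the Mef2c-deficient arrays. These counts are therefore no support by themselves, and those over all 64 genes stand beside them. Without the filter 14 were higher, where the share of all genes was 8.32%, and 4 were lower, where it was 15.4%. Without Mef2c-deficient replicate 3 these counts were 11 and 5, where 1869 and 2919 of all 17372 genes were higher and lower.

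Higher means were frequent both among the adhesion genes passing the filter and among those below it. Of the 64 genes, 53 had a higher mean in Mef2c-deficient cells, against 52.5% of all genes. They were 28 of the 35 passing the filter, against 37.7% of all genes there, and 25 of the 29 below it, against 80%. Every Mef2c-deficient array lay above every control array in 21 genes, where 15.8% of all genes did so, and below in 3 genes, where the share was 18.7%. Of the 21, 10 passed the filter, where the share was 10.6%, and 11 lay below it, where it was 25.5%. Of the 3, 2 passed it, where the share was 27.1%, and 1 lay below it, where it was 3.23%. The median log2 difference was 0.49 over the 35 genes passing the filter and -0.36 over all genes passing it. Below the filter the medians were nearly alike, at 0.46 for the 29 adhesion genes and 0.37 for all genes there. The median of the 35 was 0.57 after quantile normalization, 0.57 after cyclic loess and 0.78 after median centring, while that of all genes moved to -0.10, -0.04 and -0.07.

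**Figure D1:**
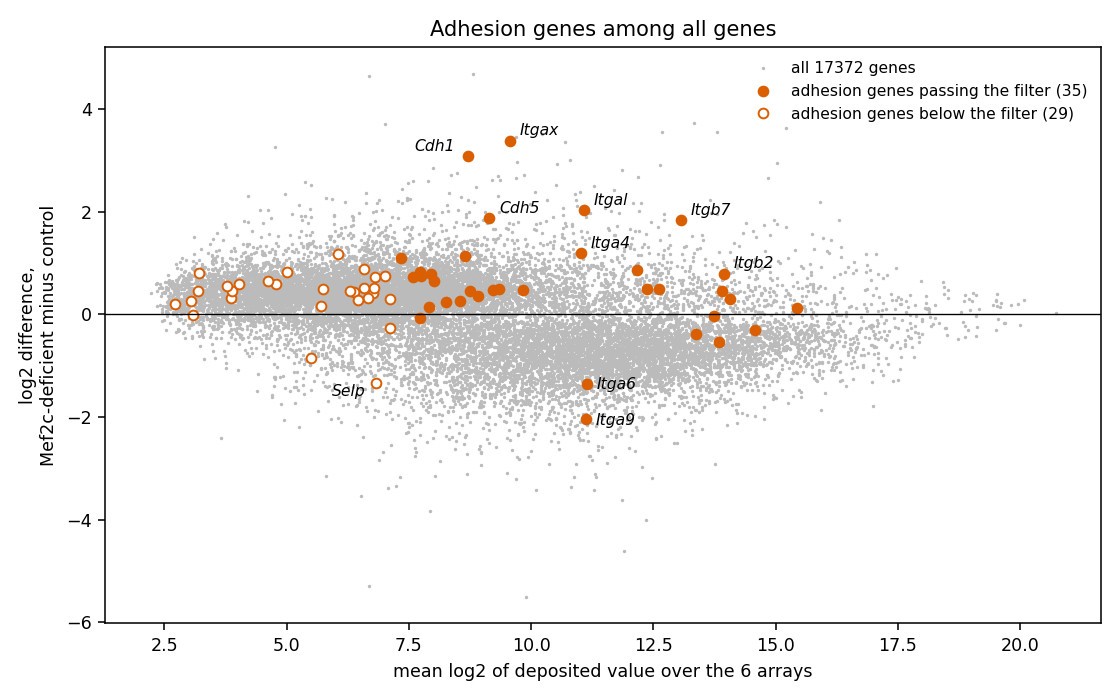
The log2 difference (Mef2c-deficient minus control) on the vertical axis against the mean log2 value over 6 arrays, for all 17372 genes (grey) and the 64 adhesion genes (filled orange for the 35 passing the filter, open for the 29 below it). Dim genes lie mostly above 0 and genes of middle brightness mostly below it, with Itgax at 3.38 and Itga9 at -2.05 as the extremes among the adhesion genes.

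Markers of some other blood cells differed between the arrays, although none of their genes passed the adjusted threshold. Of 12 markers of plasmacytoid dendritic cells measured, 11 passed the filter, all with higher means in Mef2c-deficient cells, and 6 of them were higher at an unadjusted p under 0.05. Of all genes passing the filter, 37.7% had a higher mean and 5.32% were higher at this threshold. The summed deposited value of the 12 markers ran from 76989 to 1127546 in the Mef2c-deficient arrays and from 30094 to 98668 in the control arrays. Siglech, a defining marker, read 14.41, 16.55 and 18.54 in Mef2c-deficient arrays, against 12.59, 12.51 and 15.53 in control arrays. The values of Itgax, Itgal, Itgb5, Itgb7 and Cdh1 had the same order of arrays within the Mef2c-deficient group, with replicate 3 highest. The other adhesion genes with an unadjusted p under 0.05 after the filter had another order: Itga6, Itga7, Itga9, Itgb1, Tln2, Cdh3 and Cdh4. As a bulk measurement, more cells of a type in the sort and more RNA per cell cannot be told apart.

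The neutrophil list was high in a single array. Its summed value ran from 47192 to 1316476 in the Mef2c-deficient arrays and from 35222 to 182514 in the control arrays. At an unadjusted p under 0.05, 1 of 12 markers passing the filter was higher, where 5.32% of all genes were. It was Fcnb, at 7.81, 7.62 and 8.97 in Mef2c-deficient arrays, against 6.70, 6.53 and 6.92 in control arrays. Every control value lay below 7.26, so Fcnb passed the filter only through the Mef2c-deficient arrays. Mpo read 6.37, 5.81 and 15.25 in Mef2c-deficient arrays, against 8.80, 6.44 and 7.91 in control arrays. The median shift from the control mean was 0.61, 0.46 and 1.52 for T-cell markers, -0.04, 1.39 and 1.13 for conventional dendritic cell markers and 0.21, 0.88 and 1.20 for monocyte and macrophage markers in Mef2c-deficient replicates 1 to 3. The part of these cells in the adhesion values was not tested. As background, neutrophils, T cells and monocytes as a rule lack B220 and fall outside the sort gate, while plasmacytoid dendritic cells carry it. Mature B-cell markers had a median difference of -0.13, with 6 of 11 lower, against 62.3% of all genes passing the filter. Their median shift from the control mean was -0.39, 1.10 and -1.05 in Mef2c-deficient replicates 1 to 3. Their summed value was 338208, 625667 and 251598 in those arrays, against 226666 to 299829 in control arrays. The summed erythroid markers ran from 5181 to 23841 in Mef2c-deficient arrays and from 16948 to 26024 in control arrays.

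**Figure D2:**
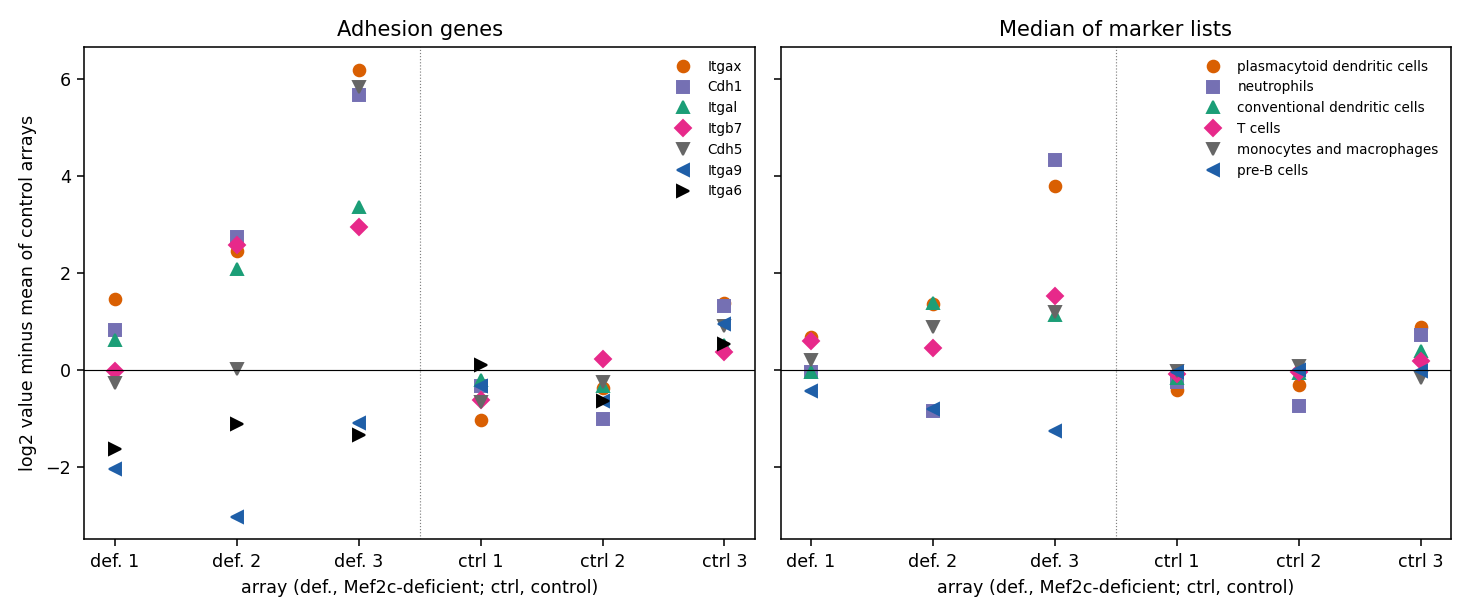
Log2 value relative to the control mean (vertical axis) in each of the 6 arrays for 7 adhesion genes (left) and as the median of 6 marker lists (right), with the Mef2c-deficient arrays left of the control arrays. In Mef2c-deficient replicate 3, the neutrophil list stands at 4.33 and the plasmacytoid dendritic cell list at 3.81, while the pre-B-cell list is at -1.25.

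The leukocyte integrins that use the beta2 chain had the highest median difference of the roles, at 1.41. All 4 had higher means in Mef2c-deficient cells, and 2 were higher at an unadjusted p under 0.05. The shares of all genes passing the filter were 37.7% and 5.32%. Itgax, the alphaX chain known as CD11c on dendritic cells, read 9.35, 10.34 and 14.08 in Mef2c-deficient replicates 1 to 3, against 6.86, 7.51 and 9.27 in control replicates 1 to 3. The groups did not overlap, although the lowest Mef2c-deficient array was close to the highest control array. The log2 difference was 3.38 (SE 1.20), which makes the deposited value 10.4-fold higher (5.07-fold if the base is e), with a limma adjusted p of 0.150. The unadjusted p was no longer under 0.05 without control replicate 1 or control replicate 2. Without Mef2c-deficient replicate 3 the difference was 1.97.

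Itgal, the alphaL chain of LFA-1, which binds ICAM-1, read 10.69, 12.15 and 13.44 in Mef2c-deficient arrays, against 9.86, 9.74 and 10.59 in control arrays. The Mef2c-deficient arrays spread over nearly 3 log2 units and all lay above the control arrays. The difference was 2.03 (SE 0.662, limma adjusted p = 0.136). The unadjusted p was no longer under 0.05 without control replicate 2, and the difference was 1.36 without Mef2c-deficient replicate 3. Itgb2, the beta2 chain that all these alpha chains need to reach the surface, read 13.42, 13.94 and 15.68 in Mef2c-deficient arrays, against 13.31, 13.31 and 14.04 in control arrays. The groups overlapped, and the difference of 0.79 had a 95% interval of -0.55 to 2.13. Itgam, the alphaM chain of myeloid cells, had a difference of 0.14 with an interval of -0.88 to 1.16, and it turned to -0.06 after cyclic loess.

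The integrin chains that carry alpha4 and beta7 also had higher values. Itgb7, whose chain pairs with alpha4 for homing to the gut or with alphaE, read 12.12, 14.72 and 15.11 in Mef2c-deficient arrays, against 11.54, 12.37 and 12.53 in control arrays. Replicate 1 of the Mef2c-deficient arrays lay inside the control range and the other two lay well above it. The difference was 1.84 (SE 0.763, limma adjusted p = 0.181). Leaving out any array other than Mef2c-deficient replicate 1 took it past an unadjusted p of 0.05. It was 1.27 without Mef2c-deficient replicate 3 and 2.77 without Mef2c-deficient replicate 1. Itga4, the alpha4 chain of VLA-4, read 10.87, 12.74 and 11.26 in Mef2c-deficient arrays, against 9.82, 11.44 and 10.02 in control arrays. Replicate 2 was the highest array of each group, so the groups overlapped while each number differed by a similar amount. The difference was 1.20 (SE 0.612, limma adjusted p = 0.237) and did not reach an unadjusted p under 0.05. In the fit blocked on replicate number it did, with an SE of 0.297 and a limma adjusted p of 0.0966.

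Itgb1, the beta1 chain shared by many matrix receptors, read 13.26, 12.09 and 12.47 in Mef2c-deficient arrays, against 11.70, 11.64 and 11.88 in control arrays. The groups did not overlap. The difference was 0.87 (SE 0.359, limma adjusted p = 0.181). It went past an unadjusted p of 0.05 without Mef2c-deficient replicate 1, where it was 0.54, and without any 1 of the control arrays. Itgb5, which pairs with alphaV, read 7.99, 8.35 and 8.69 in Mef2c-deficient arrays, against 7.62, 7.74 and 7.33 in control arrays, with no overlap. The difference was 0.77 (SE 0.304, limma adjusted p = 0.169). It was under 0.05 unadjusted in 1 of the 6 fits that left out an array, the one without Mef2c-deficient replicate 1, and was not under it in the blocked fit. Both chains had higher values in every Mef2c-deficient array. The other beta chains differed by 0.20 (Itgb8) to 0.47 (Itgb3), and none reached an unadjusted p under 0.05.

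The alpha chains of laminin and tenascin receptors differed in both directions. Itga9, a receptor chain for tenascin-C, osteopontin and VCAM-1, read 10.10, 9.11 and 11.05 in Mef2c-deficient arrays, against 11.81, 11.51 and 13.10 in control arrays. Every Mef2c-deficient array lay below every control array, by a margin of less than 1 log2 unit between the nearest arrays. The difference was -2.05 (SE 0.599), which makes the deposited value 4.14-fold lower (2.68-fold if the base is e), with a limma adjusted p of 0.121. Its probe set is of a type that can match more than 1 transcript. Itga6, a laminin receptor chain found on early progenitors, read 10.19, 10.71 and 10.49 in Mef2c-deficient arrays, against 11.92, 11.18 and 12.37 in control arrays. The Mef2c-deficient values were close together and did not overlap the control values. The difference was -1.36 (SE 0.374, limma adjusted p = 0.112).

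Itga7, a laminin receptor chain best known from muscle, read 9.46, 9.37 and 8.79 in Mef2c-deficient arrays, against 8.36, 8.08 and 7.80 in control arrays, also with no overlap. The difference was 1.12 (SE 0.317, limma adjusted p = 0.116). Itga9, Itga6 and Itga7, with Cdh3 below, were the 4 of the 12 genes whose unadjusted p stayed under 0.05 in each of the 6 fits that left out an array. Itga3, another laminin receptor chain, read 12.80, 12.56 and 12.45 in Mef2c-deficient arrays, against 12.26, 12.58 and 11.50 in control arrays, and overlapped (difference 0.49). Itga2b and Itgav differed by 0.49 and 0.35.

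Further alpha chains lay below the filter and were read in the fit without it. Itgae, the alphaE chain that pairs with beta7, read 7.19, 6.86 and 6.99 in Mef2c-deficient arrays, against 6.04, 5.67 and 6.71 in control arrays. The difference was 0.88. Itga8 read 3.87, 3.80 and 3.17 in Mef2c-deficient arrays, against 2.91, 2.63 and 2.87 in control arrays, a difference of 0.81 at values near the bottom of the scale. Itga5, the alpha chain of the fibronectin receptor, read 4.75, 4.73 and 5.74 in Mef2c-deficient arrays, against 5.64, 6.14 and 5.96 in control arrays, and differed by -0.85. These 3 genes reached an unadjusted p under 0.05 with limma adjusted p of 0.172 to 0.204. Among all genes below the filter, 12.5% were higher and 2.49% lower at this threshold. Itga1, Itga2 and Itga10 differed by 0.59, 0.74 and 0.50.

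**Figure D3:**
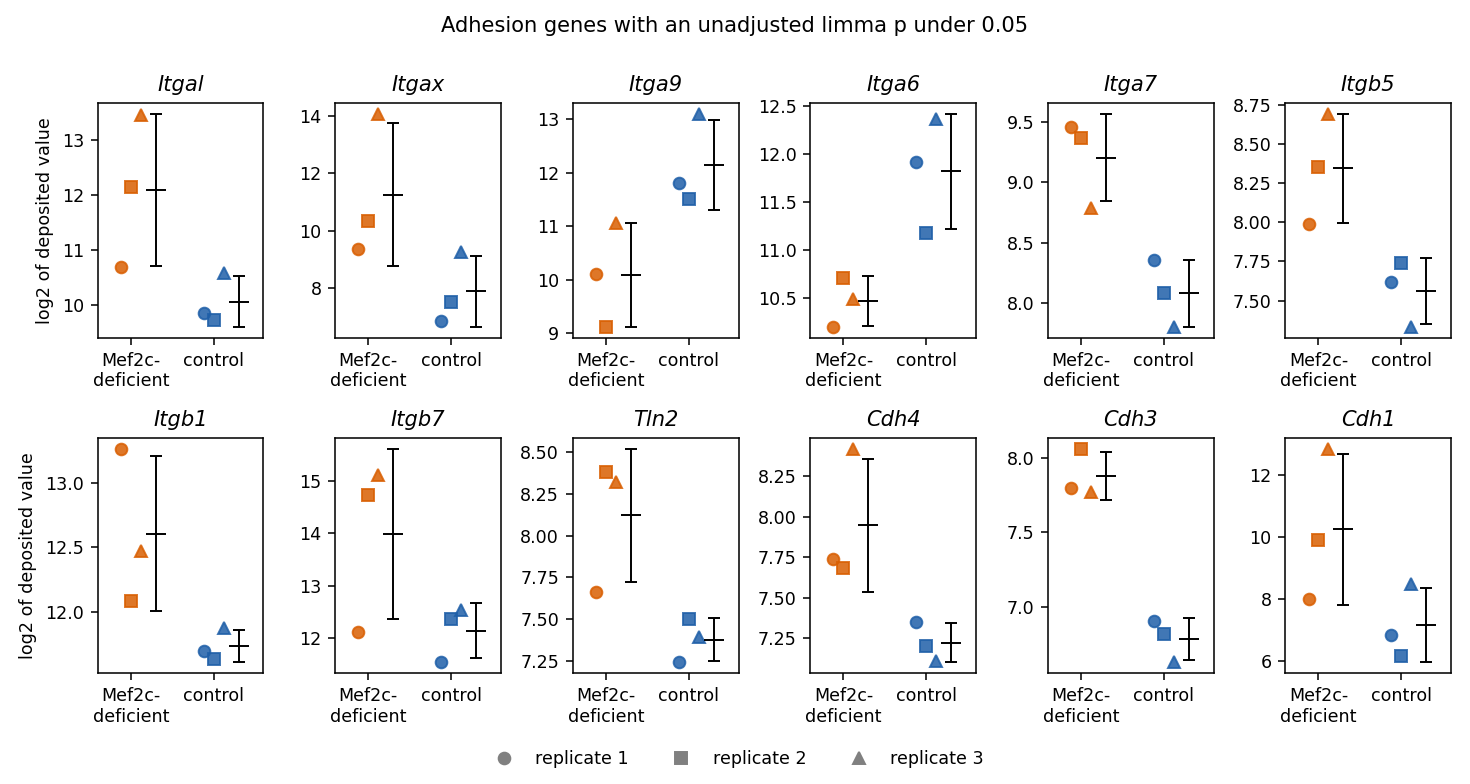
The log2 of the deposited value (vertical axis, scaled for each gene) for the 12 adhesion genes passing the filter with an unadjusted limma p under 0.05, with Mef2c-deficient arrays left and control arrays right. Symbols stand for replicates and the bars for mean ± SD over 3 arrays. Itga9 and Itga6 sit lower in all 3 Mef2c-deficient arrays, and replicate 3 (triangle) is the highest Mef2c-deficient array for Itgax, Itgal, Itgb7, Itgb5, Itga9, Cdh4 and Cdh1.

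The proteins that act on integrin tails showed small differences. Tln1, the talin of blood cells, read 15.07, 15.62 and 15.80 in Mef2c-deficient arrays, against 15.28, 15.42 and 15.45 in control arrays. The groups overlapped, and the difference of 0.11 had a 95% interval of -0.55 to 0.78. Fermt3, the kindlin of blood cells, read 13.65, 13.98 and 14.74 in Mef2c-deficient arrays, against 13.53, 13.65 and 13.86 in control arrays, a difference of 0.44 with an interval of -0.34 to 1.23. Tln2, the second talin, read 7.66, 8.38 and 8.32 in Mef2c-deficient arrays, against 7.24, 7.50 and 7.39 in control arrays. Its groups did not overlap, and the difference was 0.74 (SE 0.308, limma adjusted p = 0.181). Its unadjusted p was under 0.05 in 1 of the 6 fits that left out an array, the one without Mef2c-deficient replicate 1. Itgb1bp1, which binds the beta1 tail, read 13.40, 12.34 and 15.41 in Mef2c-deficient arrays, against 13.90, 13.70 and 13.64 in control arrays, so that the Mef2c-deficient arrays lay on both sides of the control arrays. Itgb1bp2, known from muscle, lay below the filter and read 7.15, 6.94 and 6.84 in Mef2c-deficient arrays, against 6.99, 7.19 and 7.55 in control arrays (difference -0.27). Itgb2l and Itgb3bp, also below the filter, differed by 0.44 and 0.51.

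The receptors of the immunoglobulin type showed small differences of either sign. Pecam1, which binds itself between cells, read 14.84, 14.47 and 13.99 in Mef2c-deficient arrays, against 14.99, 14.24 and 15.00 in control arrays (difference -0.31). Icam2, a ligand of LFA-1, read 13.65, 14.45 and 12.59 in Mef2c-deficient arrays, against 14.27, 13.83 and 14.21 in control arrays (difference -0.54). Both overlapped, and the difference of Pecam1 was no longer negative after quantile normalization (0.00) or cyclic loess (0.18). Icam1 differed by 0.49 with a 95% interval of -0.60 to 1.57. Vcam1, the stromal ligand of alpha4beta1, lay below the filter and read 5.18, 7.52 and 7.09 in Mef2c-deficient arrays, against 5.77, 8.02 and 5.20 in control arrays. Both groups spanned over 2 log2 units. F11r, which encodes junctional adhesion molecule A, read 9.34, 8.09 and 7.59 in Mef2c-deficient arrays, against 7.98, 7.45 and 7.63 in control arrays. Jam2, below the filter, read 4.87, 4.41 and 5.58 in Mef2c-deficient arrays, against 3.97, 4.25 and 4.70 in control arrays. Both overlapped, and both differed by 0.65 without reaching an unadjusted p under 0.05.

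Selp, which encodes P-selectin, had the smallest p among the selectin genes. It read 5.99, 6.25 and 6.23 in Mef2c-deficient arrays, against 7.06, 7.21 and 8.22 in control arrays. The groups did not overlap, but the gene lay below the filter. The difference was -1.34 with a limma adjusted p of 0.124 in the fit without the filter. Selplg, which encodes the ligand PSGL-1, read 13.17, 13.37 and 16.09 in Mef2c-deficient arrays, against 14.06, 13.09 and 14.59 in control arrays. Its difference was 0.29, and -0.64 without Mef2c-deficient replicate 3. Sele, the endothelial selectin, differed by 0.32. Cd44, the hyaluronan receptor, read 13.14, 12.68 and 13.72 in Mef2c-deficient arrays, against 13.96, 13.45 and 13.26 in control arrays. Its difference of -0.38 turned to 0.01 after quantile normalization and to 0.17 after cyclic loess.

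Of 20 cadherins, 19 had a higher mean in Mef2c-deficient cells. Of these, 11 were among the 12 cadherins below the filter, where 80% of all genes had a higher mean, while all 8 that passed it had a higher mean, where the share was 37.7%. Cdh1, which encodes E-cadherin, a molecule of epithelia that also marks some blood cells, read 8.0, 9.91 and 12.84 in Mef2c-deficient arrays, against 6.84, 6.17 and 8.50 in control arrays. Only replicate 1 of the Mef2c-deficient arrays overlapped the controls. The difference was 3.08 (SE 1.17, limma adjusted p = 0.162), an 8.45-fold higher deposited value. The unadjusted p was under 0.05 in 2 of the 6 fits that left out an array (Mef2c-deficient replicate 1 or control replicate 3), and the difference was 1.78 without Mef2c-deficient replicate 3.

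Cdh3, which encodes P-cadherin, read 7.80, 8.06 and 7.77 in Mef2c-deficient arrays, against 6.91, 6.82 and 6.63 in control arrays. The spread within each group was small beside the gap between them, with a difference of 1.09 (SE 0.267, limma adjusted p = 0.102). Its control mean of 6.79 lay below the filter, as did those of Cdh1 (7.17) and Cdh4 (7.22). Cdh4, which encodes R-cadherin, read 7.74, 7.68 and 8.42 in Mef2c-deficient arrays, against 7.35, 7.20 and 7.11 in control arrays. It did not overlap and differed by 0.72 (SE 0.308, limma adjusted p = 0.189). Its unadjusted p was under 0.05 in 1 of the 6 fits that left out an array, the one without Mef2c-deficient replicate 2, and not in the blocked fit. Cdh15, of muscle, read 9.72, 9.55 and 9.11 in Mef2c-deficient arrays, against 9.19, 9.13 and 8.64 in control arrays (difference 0.47). Below the filter, Cdh10 read 5.87, 5.30 and 5.07 in Mef2c-deficient arrays, against 4.47, 4.75 and 4.55 in control arrays (difference 0.82). Cdh9 read 4.22, 4.33 and 4.42 in Mef2c-deficient arrays, against 3.80, 3.76 and 3.67 in control arrays (difference 0.58). Neither overlapped, and both had an unadjusted p under 0.05.

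Cdh5, which encodes VE-cadherin of endothelium, rested on a single array. It read 7.95, 8.24 and 14.06 in Mef2c-deficient arrays, against 7.56, 7.96 and 9.12 in control arrays. The difference was 1.87 (SE 1.51), and -0.12 without Mef2c-deficient replicate 3. The summed value of 16 endothelial and stromal markers was 4068, 3280 and 3428 in Mef2c-deficient arrays, against 2407, 2654 and 2106 in control arrays. Of the 16, 6 passed the filter, all with higher means, where the share of all genes was 37.7%. The others lay below it, where 80% of all genes had a higher mean. The part of endothelial and stromal cells in the Cdh5 value was not tested.

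**Figure D4:**
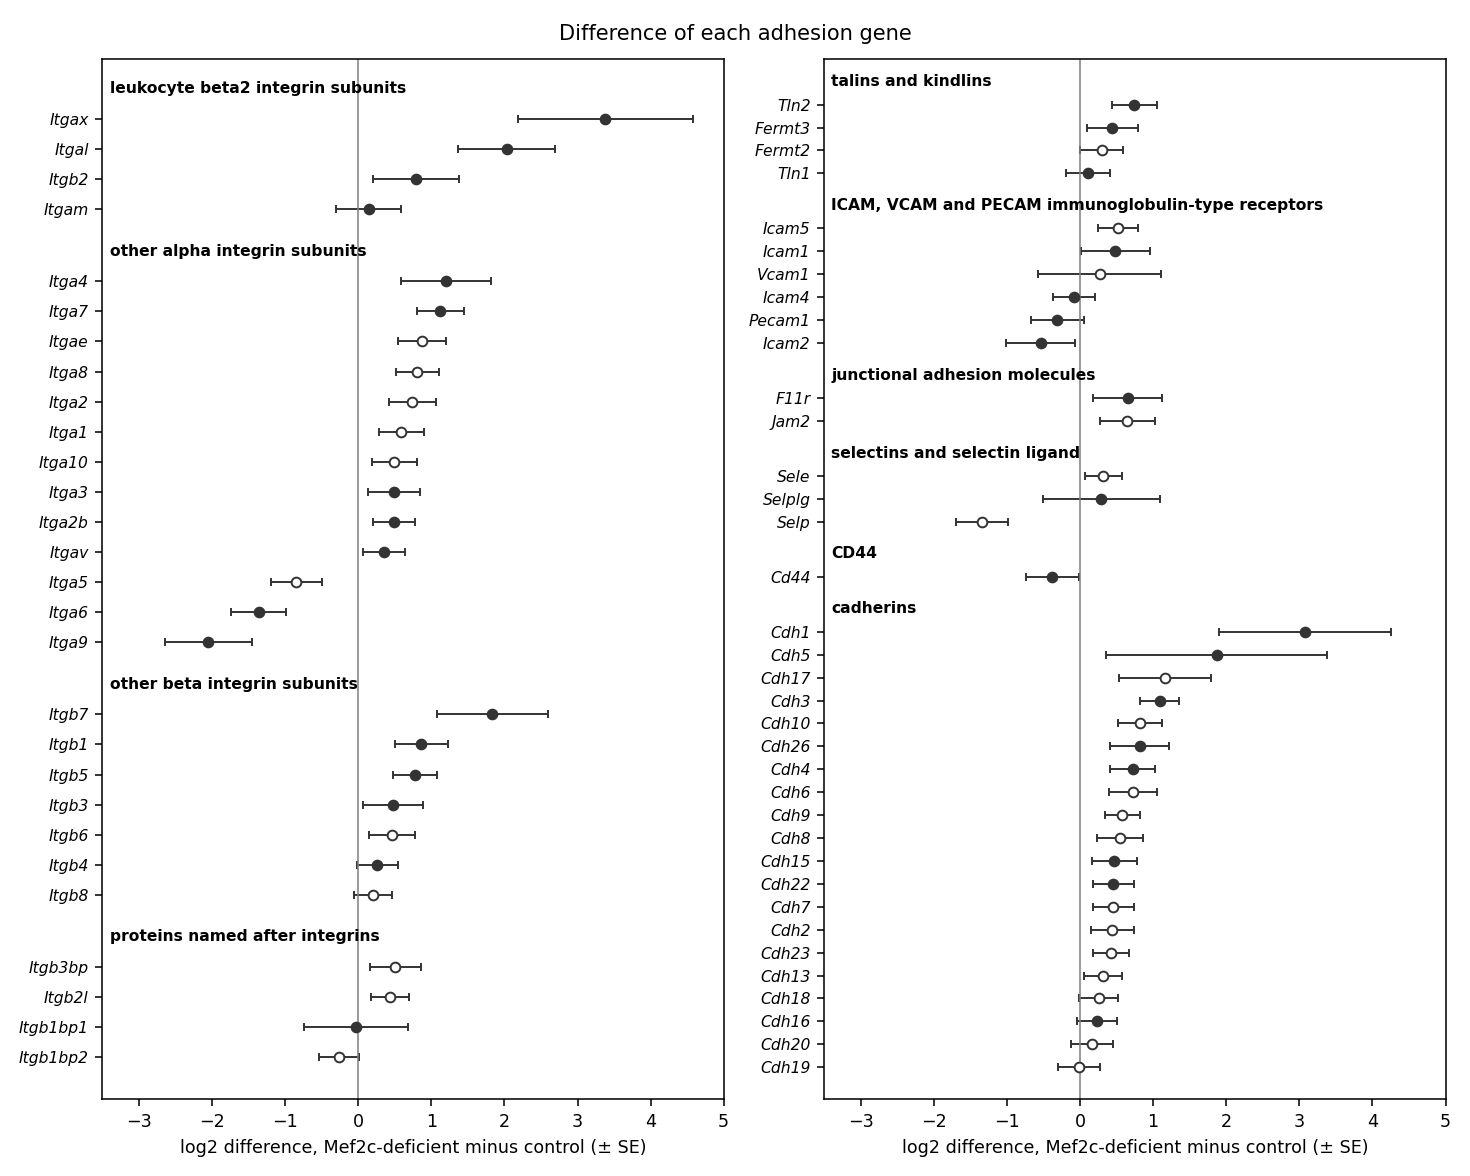
The log2 difference (Mef2c-deficient minus control, horizontal axis) of each of the 64 adhesion genes, grouped by role, with bars of 1 SE from limma. Filled points passed the filter and open points did not. Itgax, Cdh1, Itgal and Cdh5 reach furthest to the right, and Itga9, Itga6 and Selp furthest to the left.

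Genes that work beside the adhesion receptors were read from 5 lists, and none of their genes passed the adjusted threshold. Their counts at an unadjusted p under 0.05 are read against the 5.32% higher and 20.9% lower of all genes passing the filter, and their medians against -0.36. Of 35 genes of integrin activation and focal adhesion passing the filter, 5 had higher and 2 had lower values with an unadjusted p under 0.05, and the median was 0.18. Zyx, which encodes the focal adhesion protein zyxin, read 8.03, 8.20 and 8.65 in Mef2c-deficient arrays, against 6.86, 6.46 and 6.94 in control arrays (difference 1.54, limma adjusted p = 0.0861). Its control mean of 6.75 lay below the filter, so it passed only through the Mef2c-deficient arrays. Actn1, which cross-links actin, differed by 1.74 and Skap1, an adaptor of integrin signalling in T cells, by 1.08. The control mean of Skap1, 7.26, lay at the filter value. Crkl, an adaptor for Rap activation, differed by -1.18.

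Of 9 cadherin partners passing the filter, 6 had a lower mean, as did 62.3% of all genes passing it. At an unadjusted p under 0.05, 4 were lower and 1 was higher, with a median of -0.47. The 1 higher gene had a control mean below the filter. Ctnnb1, which encodes beta-catenin, read 13.22, 12.68 and 13.74 in Mef2c-deficient arrays, against 14.29, 14.19 and 14.61 in control arrays (difference -1.15, limma adjusted p = 0.128). Ctnnal1, a relative of alpha-catenin, differed by -1.58, Cbll1, a ligase that acts on E-cadherin, by -1.28, and Vezt by -1.05. The difference between these genes and the cadherins was not tested.

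For selectin ligand synthesis, 4 of 15 genes were lower and 2 higher, with a median of -0.48, so that the share of lower genes was near that of all genes. B4galt1, a galactosyltransferase, differed by -1.17, and Fut7, the fucosyltransferase that completes selectin ligands, by 0.91. Among 13 matrix and soluble ligands 2 were lower and 3 higher (median 0.38), with Adam9 at -1.74 and Lamc1 at -1.13, and Lama1 and Adam15 at 0.93 and 1.06. Of 29 other surface adhesion genes and tetraspanins, 3 were higher and 0 lower (median 0.14). Cadm1 read 7.48, 8.70 and 12.07 in Mef2c-deficient arrays, against 6.62, 6.93 and 6.18 in control arrays. Like Lama1, with a control mean of 6.86, it passed the filter only through the Mef2c-deficient arrays. Cd151 and Cd99l2 differed by 1.02 and 0.92.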

How the data were processed

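RNA of sorted bone marrow pre-B cells was hybridised to Affymetrix arrays, with 3 Mef2c-deficient and 3 control arrays grouped by their labels. The authors deposited linear intensities of 23913 probe sets. They had corrected the background, normalized by quantiles and summarised probes by robust multiarray averaging. The highest deposited value was 2144602, which is 21.03 as log2 or 14.58 as a natural log, so the base with which the log scale was undone is unknown. The versions of the tools they used: not given in the sources used here. The detection calls by which the study excluded probes were not used.

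The log2 of each value was taken with no offset. Names came from GEO's annotation of the platform and may be old: 17689 had 1 symbol, 524 several and 5699 none. Control probe sets and those without 1 symbol stayed out. The probe set with the highest mean stood for a gene, and the 11271 genes above the 40th percentile were tested two-sided with limma 3.58.1 (R 4.3.3, a linear model on group alone, default eBayes), adjusted by Benjamini-Hochberg with a threshold of 0.05. Genes below the filter were read in a fit of all 17372 genes. The code was tested on simulated data.

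The members and lists were chosen with earlier results of these data known. Values in every array are given for genes with an unadjusted p under 0.05 and for the 2 with the highest mean of each role, and up to 4 genes of each further list are named. Vcam1, Itga4 and Itgam were added for their part in pairs. Same-numbered arrays of the groups deviated together (correlations 0.348, 0.226 and 0.373, against -0.309 to 0.129 for the other pairs). No label explains the numbers, and the pairing rests on these values, so a blocked fit with replicate number as a term was also run. Alternatives were other filters, scalings, probe set rules and variance models, 16 added before the log, and each array left out. Promoters came from RefSeq tables on GRCm38.p6 and matched 41 of the 64 genes.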

Additional observations from a re-analysis of the deposited data

How the results depend on the processing

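The adhesion genes were 0 past the adjusted threshold in the limma fits with the other filters, scalings and probe set rules, with the replicate block and with each array left out. Array weights were the exception, with 5 genes past it (Cdh3, Itga6, Itga9, Itgal and Itgax, adjusted p of 0.0327 to 0.0484) among 1154 of all genes. The smallest adjusted p of an adhesion gene was otherwise 0.0596 to 0.340. Averaging probe sets could not change the differences of the adhesion genes tested, since each had 1 probe set among those deposited. Counts at an unadjusted p under 0.05 were less steady. The lower adhesion genes, 2 in the report, were 4 with no filter, 1 without the _x_at and _s_at probe sets, 1 by the methods' t-test and 5 with no filter and without Mef2c-deficient replicate 3. The higher ones, 10 in the report, were 4 with a filter at the 60th percentile, 5 by the methods' t-test, 20 after centring on the genes tested, 9 with the replicate block, and 3 to 8 with an array left out. Centring on the genes tested and the fit with no filter and without that array were chosen after seeing the data.

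Of all genes, 2353 were lower in the report, against 1247 after quantile normalization, 1148 after cyclic loess, 1209 after median centring, 730 after centring on the genes tested and 1392 to 2668 with an array left out. The higher genes, 600, were 1445 with no filter, 249 at the 60th percentile, 931 after cyclic loess, 1581 after median centring, 1005 with array weights, 2278 after centring on the genes tested, 1869 with no filter and without Mef2c-deficient replicate 3, and 239 to 797 with an array left out. The 2 genes past the adjusted threshold were 0 after quantile normalization, cyclic loess, median centring, centring on the genes tested, the methods' t-test or the replicate block, 95 with no filter and without Mef2c-deficient replicate 3, and 0 to 159 with an array left out. The adhesion median, 0.49, was 0.57 after quantile normalization, 0.57 after cyclic loess, 0.78 after median centring, 0.95 after centring on the genes tested and 0.40 to 0.63 with an array left out. The cause of these shifts was not tested.

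Over the single genes and settings, 570 differences kept their direction and side of the unadjusted threshold, 53 lost it, 31 gained it and 29 changed sign. Of the sign changes, none was in one of the 12 genes with an unadjusted p under 0.05. Cd44 turned to 0.01 (quantile), 0.17 (loess) and 0.08 (centring on the genes tested), Pecam1 to 0.00, 0.18 and 0.15 in the same order. Itgb1bp1 turned to 0.34 (quantile), 0.51 (loess), 0.26 (median centring), 0.43 (centring on the genes tested) and -0.88 to 0.66 with an array left out. Icam4 turned to 0.21 (median centring), 0.04 (array weights) and 0.38 (centring on the genes tested), Itgam to -0.06 (loess), and Selplg to -0.27 (array weights). With an array left out, Itgam ran from -0.10 to 0.52, Selplg from -0.64 to 0.81, Icam4 from -0.20 to 0.07, Cdh5 from -0.12 to 2.94 and Tln1 from -0.04 to 0.33. For the last 4 the value opposite to the report came without Mef2c-deficient replicate 3, and it was the same with no filter. With the replicate block Itga4 came under an unadjusted p of 0.05, Itgb5 and Cdh4 went past it, and no other call on a single gene changed. Genes below the filter have a weak signal, and their differences are limited by it.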
